A study of Caenorhabditis elegans with 80 samples.

Results

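The lysozyme, saposin and antimicrobial peptide genes of Caenorhabditis elegans were taken as all probes whose gene symbol begins with lys-, ilys-, spp-, abf-, cnc-, fip-, fipr- or thn-. The rule found 81 probes for 77 genes among the 23232 probes of the array, of which 17447 carry a single gene name. The 20 spp probes were the largest family, followed by 16 fipr, 12 lys, 8 cnc and 7 ilys probes, and the abf, fip and thn families had 6 probes each. Of the 77 genes, 23 lie on chromosome V, 22 on IV, 14 on X, 10 on I, 5 on III and 3 on II, and thn-3 is annotated as a pseudogene.

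The animals were recombinant inbred (RI) strains, named WN and a number, made from the N2 (Bristol) and CB4856 (Hawaii) wild types. Whole hermaphrodites grown on the OP50 strain of Escherichia coli were collected at the third larval stage (L3), after 72 h at 16 °C or 40 h at 24 °C, so that temperature and hours of growth differ together. No exposure to a pathogen is named for either group. Each of the 40 arrays per temperature carried RNA of 2 RI strains, labelled Cy3 and Cy5, and 39 strain pairs were hybridised in the same combination at both temperatures.

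A nematode has no circulating immune cells, and meets bacteria in its gut and fungi on its cuticle with secreted proteins. Lysozymes cut the peptidoglycan of bacterial cell walls, and in the worm they come in a protist type (lys) and an invertebrate type (ilys). Saposin-like proteins of the spp family, or caenopores, are related to the pore-forming amoebapores. The abf peptides resemble defensins, the cnc peptides (caenacins) and the fip and fipr peptides (fungus-induced proteins and their relatives) are known mainly from the epidermis during fungal infection, and the thn proteins are related to thaumatin, which belongs to the defence proteins of plants. Since the worms eat bacteria, the gut enzymes of the lys, ilys and spp families also serve in digestion.

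Every value is a log ratio between the 2 strains of an array, read here as log2. Which dye stands in the numerator was not given, so a sign shows only which way an array differs from another, and no level of a gene and no difference in level between 16 °C and 24 °C can be had from these ratios. What can be compared is how far the strains of a pair lie apart for a gene (the SD over pairs), whether the same pairs lie apart the same way at both temperatures, and which genes vary together over arrays. Over all probes of an array the SD lay between 1.04 and 1.48 at 16 °C and between 1.16 and 1.65 at 24 °C. Each strain was hybridised once or rarely more at a temperature, so a ratio holds strain, culture and array differences together. The strains WN38, WN65 and WN80, each on more than 1 array at a temperature, lie on 5 of the 39 pairs. Of these, WN38 and WN80 recur among the 39, so their pairs are not fully independent. WN65 recurs only through a 24 °C array outside the 39.

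The secreted gut and epidermal proteins included several of the most variable genes of the array. The median SD of the 81 probes was 1.15 at 16 °C and 1.20 at 24 °C, against 1.04 and 1.11 over all probes, and single probes lay between 0.46 and 2.60 at 16 °C and between 0.60 and 3.67 at 24 °C. Ranked by the geometric mean of both SDs, the 10 most variable probes belonged to fipr-28, ilys-3 (2 probes), fip-7, spp-27, spp-6, abf-3, spp-9, spp-12 and fipr-22. The fipr-28 probe stood at the 99.4th percentile of all probes and the fipr-22 probe at the 95.4th. At the other end, fipr-21 (2.76th percentile), spp-5 (4.31), lys-1 (6.97) and spp-3 (6.98) differed least between strains. The product of spp-5 is a caenopore known to kill bacteria.

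By family, the median SD was highest for the invertebrate-type lysozymes, 1.39 at 16 °C and 1.60 at 24 °C over 7 ilys probes, and lowest for the caenacins, 0.98 at both over 8 probes. The fip probes had medians of 1.04 and 1.45, the fipr probes 1.30 and 1.23, the thn probes 1.23 and 1.32, the lys probes 1.16 and 1.15, the abf probes 1.12 and 1.33 and the spp probes 1.11 and 1.15. Every family held both calm and variable genes. Among the lys probes, lys-1 and lys-8 had SDs of 0.55 and 0.57 at 16 °C, against 1.57 for lys-9 and 1.78 for lys-7. In the abf family, abf-3 had SDs of 2.23 and 2.18, whereas abf-6 had 0.86 and 0.75.

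The single most variable probe of the remaining families gave the following ratios. Those of spp-27, a saposin-like gene on chromosome V, ran from -7.83 over a median of 0.02 to 4.15 at 16 °C and from -5.27 over -0.08 to 8.20 at 24 °C. For abf-3 they ran from -6.87 over -0.16 to 3.55 and from -6.43 over -0.60 to 3.72. The caenacin cnc-4, the protist-type lysozyme lys-10 and the thaumatin-like thn-1 stayed within narrower limits, from -5.02 to 3.51, from -3.14 to 2.82 and from -3.99 to 5.95 over both temperatures. The lowest ratio of spp-27 at 16 °C, on WN54/WN6, and its highest at 24 °C, on WN1/WN80, came from different strain pairs.

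**Figure D1:**
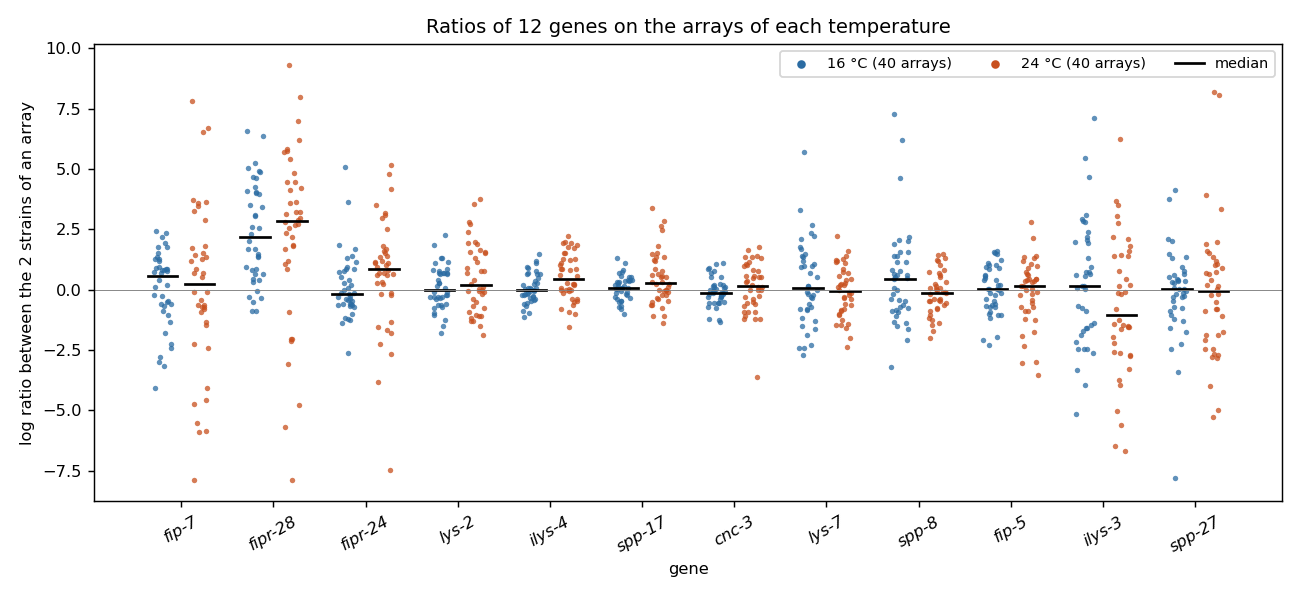
Log ratios (vertical axis) of 12 genes on the 40 arrays at 16 °C (blue) and the 40 arrays at 24 °C (orange), 1 point per array, with the median as a black line. The points of fip-7 and fipr-28 reach from about -7.9 to 7.81 and 9.32 at 24 °C and lie closer together at 16 °C, whereas spp-8 and lys-7 are wider at 16 °C.

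The invertebrate-type lysozyme ilys-3, known from the pharynx and intestine, was measured by 2 probes on chromosome IV. The first gave a lowest ratio of -5.15, a median of 0.15 and a highest ratio of 7.12 at 16 °C, and -6.69, -1.04 and 6.24 at 24 °C. The second ran from -4.01 over a median of 0.30 to 6.51 at 16 °C and from -5.81 over -0.54 to 7.16 at 24 °C. Both placed the pair WN31/WN44 highest at 16 °C and WN1/WN80 highest at 24 °C, and their values correlated over the 40 arrays with r = 0.931 at 16 °C and r = 0.873 at 24 °C. Whether both probes hold different oligonucleotides was not checked. On 27 arrays at 16 °C and 32 at 24 °C the first probe differed by more than 1 between the strains. The 2 probes of lys-4 (r = 0.676 and 0.600), lys-5 (0.692 and 0.844) and fipr-22 (0.456 and 0.679) were less alike.

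Whether a strain pair differed the same way at both temperatures was asked with Pearson's r over the 39 shared pairs, adjusted over all 23232 probes by the Benjamini-Hochberg method, with a threshold of 0.05. A positive call means that a difference in signal between strains was repeated across temperatures. The arrays were designed for N2, and the paper names SNPs (single-base differences) as a likely source of hybridisation differences between N2 and CB4856 alleles. Such a difference could repeat in the same way, and its part was not tested. A single member of the 81, fip-5, was called in the positive direction, where 1.04% of all probes were called. No member was called in the negative direction, where 0.0258% of all probes were. At an unadjusted p under 0.05, 6 members were positive and 2 negative, with 5.93% and 1.77% of all probes. The median r of the members was 0.08 and that of all probes 0.03, and 51 of the 81 members had a positive r (57.6% of all probes did).

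The fungus-induced gene fip-5 lies on chromosome X. Its ratios ran from -2.29 (WN42/WN11) over a median of 0.01 to 1.60 (WN31/WN44) at 16 °C, and from -3.55 (WN65/WN30) over 0.15 to 2.79 (WN76/WN59) at 24 °C. The pairs WN42/WN11, WN65/WN30 and WN16/WN34 were the 3 lowest at both temperatures, and 29 of the 39 pairs kept their sign. Pearson's r was 0.691 (adjusted p = 3.8e-04; permutation p = 1.0e-05, the smallest that 100000 permutations can give), Spearman's rho was 0.591 (permutation p = 1.3e-04), and dropping the 2 pairs farthest out at 16 °C left r at 0.588. Leaving out each pair in turn gave r between 0.646 and 0.716. Without the 3 lowest pairs together, an alternative chosen after seeing the data, r was 0.496 and the call was lost (adjusted p = 0.15).

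Close to fip-5 on chromosome X lie the caenacin cnc-8 and the fip relative fipr-21, which were not repeated between temperatures (r = -0.14 and 0.00) and correlated with fip-5 over arrays at r = 0.392 and 0.254 at 16 °C and 0.376 and 0.291 at 24 °C. Among the 248 other probes within 1 Mb on either side, 0 were called by the same correlation test, where 1.04% of all probes were called positive. At an unadjusted p under 0.05, 14 of the 248 were positive, beside 5.93% of all probes. These counts do not set the neighbourhood apart from the rest of the array. A score of furrow collagens of the cuticle moved with fip-5 at 24 °C (r = 0.496, adjusted p = 0.050, just under the threshold) and not at 16 °C (r = -0.10, adjusted p = 0.84). Its part in the fip-5 ratios was not tested.

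**Figure D2:**
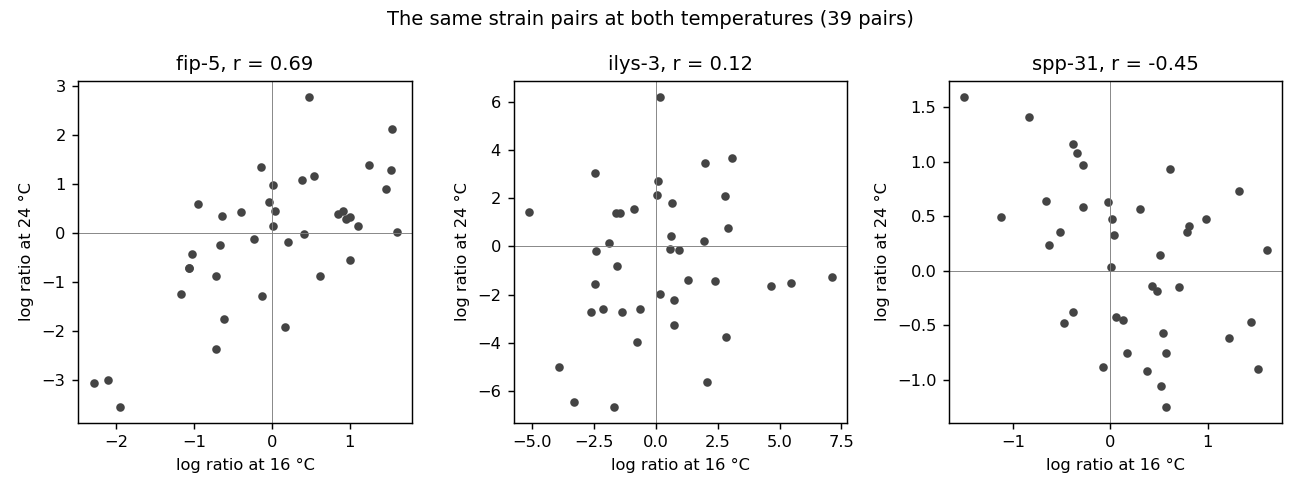
Log ratio at 16 °C (horizontal axis) against log ratio at 24 °C (vertical axis) of fip-5, ilys-3 and spp-31, 1 point per strain pair, 39 pairs. The points of fip-5 rise together (r = 0.69), those of ilys-3 show little relation (r = 0.12) and those of spp-31 slope downwards (r = -0.45), which did not pass the adjusted threshold.

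Next to fip-5, the highest r between temperatures belonged to the caenopore gene spp-12 (r = 0.424, adjusted p = 0.30) and to lys-2 (r = 0.399, adjusted p = 0.38), and neither passed the threshold. The ratios of spp-12 ran from -5.64 over a median of -0.48 to 4.61 at 16 °C and from -5.48 over 0.05 to 3.88 at 24 °C, and 21 of 39 pairs kept their sign. The lowest values belonged to spp-31 (r = -0.45, adjusted p = 0.23), thn-4 (r = -0.41, adjusted p = 0.33) and cnc-7 (r = -0.24, adjusted p = 0.83). In spp-31 only 14 of the 39 pairs kept their sign.

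None of the 10 most variable probes was called as repeated between temperatures, as 1.04% of all probes were. The first ilys-3 probe gave r = 0.124 between temperatures (permutation p = 0.45) and the second r = 0.232 (permutation p = 0.16). For fipr-28 r was 0.223, for fip-7 0.218, for spp-27 0.155 and for abf-3 -0.08, and their adjusted p values lay between 0.85 and 0.98. An order of the strain pairs shared by both temperatures was not detectable for these genes. For the others among the 10, r was 0.424 for spp-12, 0.386 for spp-6, 0.245 for spp-9 and 0.095 for fipr-22 (adjusted p from 0.30 to 0.96). By the unadjusted correlation test, spp-12 (p = 0.0072) and spp-6 (p = 0.015) lay under 0.05.

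Secondly, the spread over the 39 pairs was compared between temperatures for each probe with the Pitman-Morgan test of paired variances, again adjusted over all probes. The spread of 7 members was wider at 24 °C, where 6.12% of all probes were called in that direction, and that of 2 members was wider at 16 °C, with 3% of all probes. In all, 51 of the 81 members had the larger SD at 24 °C, and the median ratio of the SDs was 1.08 for the members and 1.08 for all probes. As deposited, the larger spread at 24 °C was shared with the rest of the array. Over all probes the median absolute ratio was 0.592 on every array at 16 °C and 0.661 on every array at 24 °C. Each temperature thus had its own common scale, and a larger spread at 24 °C as deposited cannot be told apart from that scale. With every array centred and scaled to a common spread, the balance over all probes turned, with 2.6% wider at 24 °C and 5.76% wider at 16 °C, and 2 members were still called wider at 24 °C (spp-17 and fip-7) and 2 at 16 °C (lys-7 and spp-8). On ranks, 0 probes of the array passed the threshold, and at an unadjusted p under 0.05 there were 4 members wider at 24 °C and 0 wider at 16 °C.

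**Figure D3:**
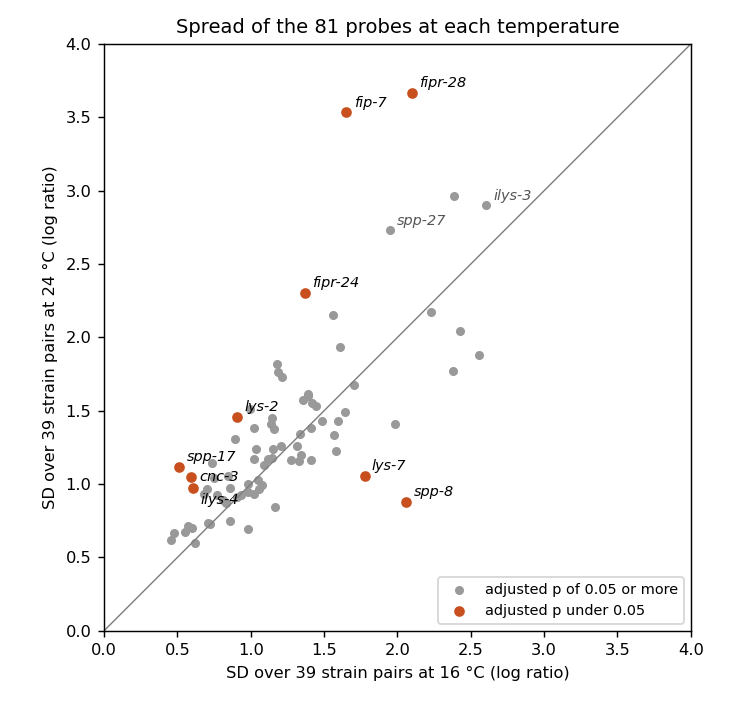
SD of the log ratio over 39 strain pairs at 16 °C (horizontal axis) against that at 24 °C (vertical axis) for the 81 probes, with equal SDs on the diagonal and the 9 probes past the adjusted threshold in orange. Above the diagonal fip-7 and fipr-28 lie highest, at SDs of 3.53 and 3.67, and below it spp-8 and lys-7 stand apart.

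The neighbouring fungus-induced genes fip-7 and fipr-28 on chromosome IV showed the widest ratios at 24 °C. The ratios of fip-7 ran from -4.07 over a median of 0.54 to 2.44 at 16 °C and from -7.90 over 0.21 to 7.81 at 24 °C, and its SD rose from 1.65 to 3.53 (adjusted p = 5.9e-04). Those of fipr-28 ran from -0.91 over 2.17 to 6.56 at 16 °C and from -7.91 over 2.84 to 9.32 at 24 °C, with SDs of 2.10 and 3.67 (adjusted p = 0.016). At 24 °C both genes had their lowest ratio on WN3/WN22 and their 3 highest on WN8/WN41, WN71/WN79 and WN70/WN48. Without WN3/WN22 fip-7 was still called (adjusted p = 0.0023), whereas fipr-28 was not (adjusted p = 0.052).

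The centre of the fipr-28 ratios lay away from 0. The mean over arrays was 2.37 at 16 °C and 2.32 at 24 °C, and 34 and 32 of the 40 arrays were positive. A shift shared by nearly all arrays can come from the dye, since almost every strain carried a single dye, and strain and dye cannot be told apart in it. For the other 9 of the 10 most variable probes the mean lay between -0.99 and 0.34.

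The saposin-like gene spp-17 on chromosome I had an SD of 0.51 at 16 °C and of 1.12 at 24 °C (adjusted p = 4.3e-04). Its ratios ran from -1.01 over 0.08 to 1.31 at 16 °C and from -1.38 over 0.28 to 3.40 at 24 °C, so that 3 arrays at 16 °C and 14 at 24 °C lay more than 1 from 0. The call of spp-17, like those of fip-7 and spp-8, was kept whichever of the 39 pairs was left out.

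Of the remaining genes wider at 24 °C, cnc-3, a caenacin of the chromosome V cluster, had SDs of 0.59 and 1.05 (adjusted p = 0.015). Its lowest ratio at 24 °C, -3.62, came from WN65/WN30, and the call was lost without that pair. The fip relative fipr-24 (1.37 and 2.31, adjusted p = 0.024) lost its call without WN51/WN74, which gave its lowest ratio of -7.48 at 24 °C, or without WN36/WN72, which gave the highest, 5.18. For lys-2 the SDs were 0.91 and 1.46 (adjusted p = 0.033), and the call was lost without any 1 of 3 pairs (WN67/WN26, WN54/WN6 or WN4/WN73). The least firm was ilys-4, with SDs of 0.61 and 0.98 (adjusted p = 0.048), which was called in 14 of the 39 fits that left out a pair.

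The saposin-like gene spp-8 on chromosome IV went the other way. At 16 °C its ratios ran from -3.19 over a median of 0.46 to 7.26, and 3 arrays stood apart at the top, WN71/WN79 at 7.26, WN58/WN38 at 6.22 and WN4/WN73 at 4.64. At 24 °C they lay between -2.01 and 1.48, with a median of -0.13. The SD fell from 2.06 to 0.88 (adjusted p = 1.4e-04). Pairs were left out 1 at a time only, so the call was not tested without the 3 highest arrays together. The lysozyme lys-7, a well-known infection-response gene of the worm, had an SD of 1.78 at 16 °C and of 1.06 at 24 °C (adjusted p = 0.023), with ratios from -2.72 over 0.06 to 5.69 and from -2.39 over -0.06 to 2.21. Its highest ratio came from WN5/WN25, and without this pair it was no longer called.

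For the third comparison, the most variable probe of each family (lys-10, ilys-3, spp-27, abf-3, cnc-4, fip-7, fipr-28 and thn-1) was correlated with every other probe over the 40 arrays of each temperature. The correlations are across arrays within a temperature and share the same strain pairs. With ilys-3, 12 of the 80 other member probes were called at 16 °C, all with a positive r, where 2.27% of all probes were called. At 24 °C there were 16, of which 15 were positive, with 4.02% of all probes. The exception was spp-17, which was lower where ilys-3 was higher (r = -0.49, adjusted p = 0.042).

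Beside the second probe of ilys-3 itself, 7 genes were called at both temperatures. These were the saposin-like spp-2 (r = 0.816 at 16 °C and 0.729 at 24 °C), spp-1 (0.666 and 0.610) and spp-18 (0.676 and 0.508), the fip relatives fipr-1 (0.570 and 0.725) and fipr-2 (0.607 and 0.738), the defensin-like abf-5 (0.515 and 0.676) and the thaumatin-like thn-2 (0.607 and 0.505). For spp-2, Spearman's rho was 0.767 and 0.724, and r was 0.752 and 0.708 without the 2 farthest arrays. The adjusted p of these genes ran from 6.3e-07 for spp-2 at 16 °C to 0.036 for abf-5 at 16 °C. They lie on chromosomes III, IV, V and X. With the first 2 principal components removed at each temperature, the second ilys-3 probe was the only call at 16 °C (0.0043% of all probes), and at 24 °C it was called with spp-2, fipr-1 and fipr-2 (0.319% of all probes). At 24 °C 7 members were called once all arrays of the recurring strains were dropped (2.59% of all probes), and 8, 9 and 10 without WN1/WN80, WN9/WN62 and WN4/WN73.

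Called at 16 °C but not at 24 °C were abf-6 (r = 0.642 and 0.164), fip-2 (0.543 and 0.402), ilys-2 (0.541 and 0.472) and spp-15 (0.524 and 0.433). Called at 24 °C but not at 16 °C were spp-8, ilys-6, spp-6, fipr-11, lys-7, thn-1, spp-24 and spp-17, with r from 0.474 to 0.561 apart from spp-17. At 16 °C their r with ilys-3 ran from 0.02 (spp-6) to 0.48 (fipr-11), spp-17 at -0.40 aside. The differences of these correlations between temperatures were not tested.

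**Figure D4:**
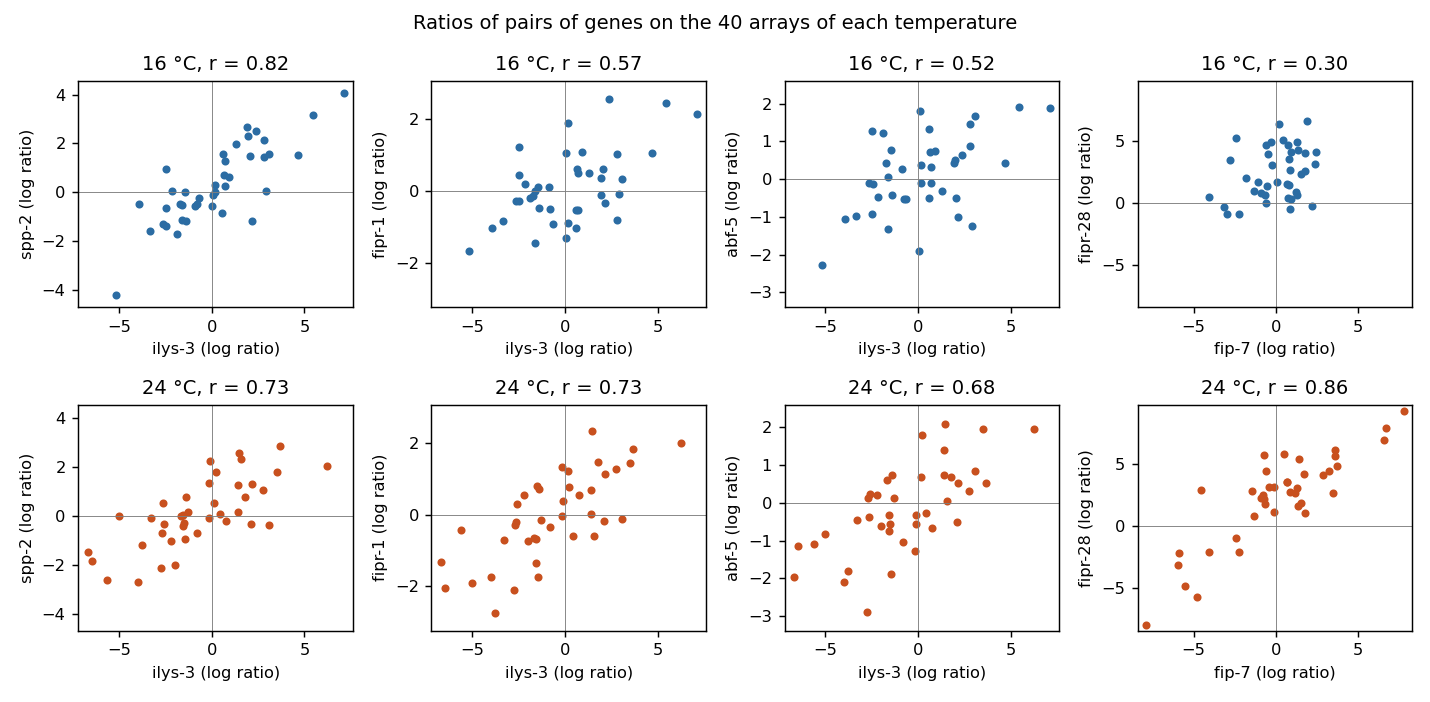
Log ratios of 2 genes plotted against each other on the 40 arrays at 16 °C (top, blue) and at 24 °C (bottom, orange). The points of ilys-3 with spp-2, fipr-1 and abf-5 rise together at both temperatures, whereas those of fip-7 with fipr-28 are loose at 16 °C (r = 0.30) and close to a line at 24 °C (r = 0.86).

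Of the 3236 member pairs of different genes, 44 had r above 0.5 at both temperatures (1.36%), whereas 0.0629% of all 269851296 probe pairs did, and no member pair had r below -0.5 at both. The genes with most such partners were fipr-1 and spp-2 (10 each), spp-1 (8) and ilys-3 (7). Within a set of 7 genes picked after their values were seen (ilys-3, spp-1, spp-2, spp-18, abf-5, fipr-1 and fipr-2), which leaves out thn-2, r lay between 0.381 and 0.842 at 16 °C and between 0.459 and 0.910 at 24 °C. Across temperatures, the ratio of 1 of these genes at 16 °C against that of another at 24 °C in the same strain pair gave r from -0.28 to 0.25, with a median of 0.04. The 3 partners of thn-2 above 0.5 at both temperatures were ilys-2, ilys-3 and thn-1. Within a temperature these genes were higher and lower on the same arrays, and across temperatures no such relation was seen.

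**Figure D5:**
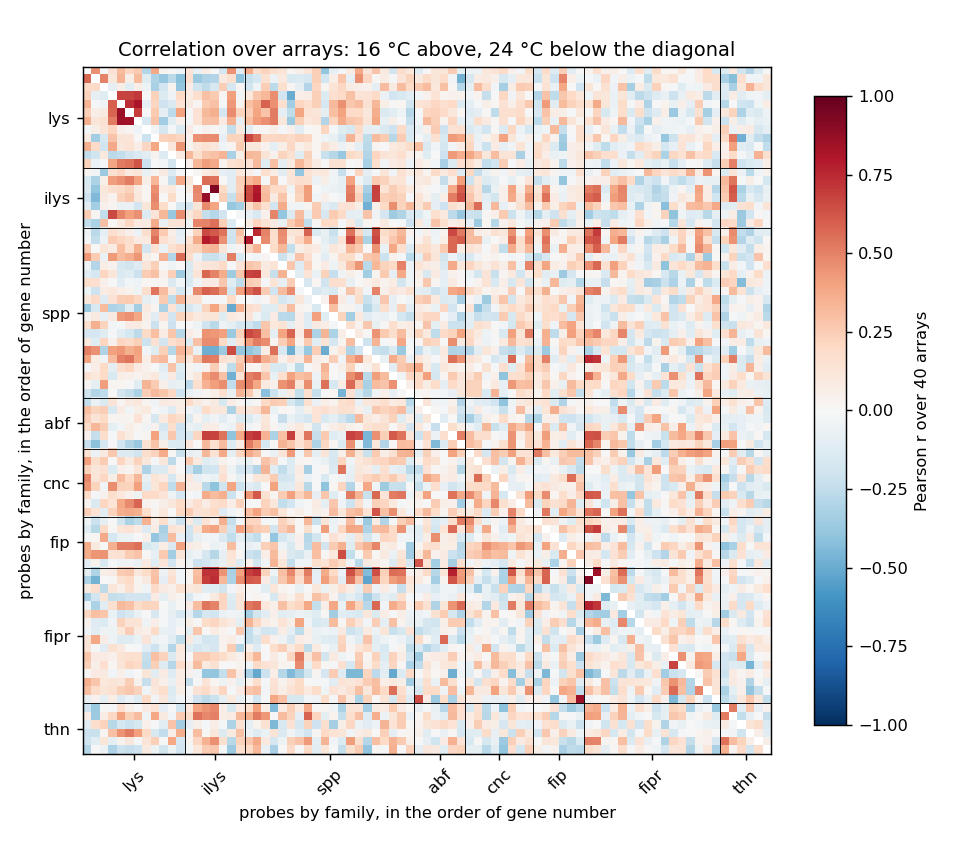
Pearson's r over 40 arrays between all 81 probes, ordered by family (both axes) and gene number, at 16 °C above the diagonal and at 24 °C below it. Red cells (positive r) gather around ilys-3, spp-1, spp-2, abf-5, fipr-1 and fipr-2 in both triangles, where the r of ilys-3 with spp-2 is 0.816 and 0.729.

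Neighbouring genes were in part alike. Of 55 probe pairs of member genes within 20 kb, 6 had r above 0.5 at both temperatures. These were fipr-1 with fipr-2 on chromosome V (r = 0.842 and 0.910), thn-1 with thn-2 on IV (0.519 and 0.523), and 4 probe pairs of lys-4 with lys-5 on IV (0.522 to 0.866). On chromosome V, lys-1 and lys-2 gave 0.460 and 0.571. In contrast lys-6, beside lys-5, gave r between -0.16 and 0.21 with the lys-4 and lys-5 probes, and fipr-14 with fipr-15 gave -0.18 and -0.28. Probe sequences were not used here, so a shared signal of similar neighbours and cross-hybridisation between them cannot be told apart.

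With fip-7, 0 members were called at 16 °C, where 0.0043% of all probes were called and the smallest adjusted p of a member was 0.77, and 4 of 80 members (5%) had an unadjusted p under 0.05, as did 5.92% of all probes. At 24 °C, fipr-28 (r = 0.862, adjusted p = 4.2e-10) and the defensin-like abf-1 (r = 0.625) were called, with 1.18% of all probes. The same genes at 16 °C gave r = 0.304 and 0.028. Exchanging the 16 °C and 24 °C values within randomly chosen strain pairs tested the change over the 39 pairs, and r rose by 0.549 for fip-7 with fipr-28 (permutation p = 3.0e-04, 10000 exchanges), by 0.599 for fip-7 with abf-1 (p = 0.010) and by 0.403 for fipr-28 with abf-1 (p = 0.017). Of 5 such tests, the r of ilys-3 with spp-2 (p = 0.070) and with spp-1 (p = 0.50) did not pass. The 3 genes had been chosen by their call at 24 °C, so the tests are not independent of that choice. The values were centred but not scaled before the exchange, which therefore also assumes equal spread at both temperatures. Since fip-7 and fipr-28 differed in spread, these p-values do not isolate a change in r. With the first 2 principal components of the arrays removed, fip-7 and fipr-28 no longer passed at 24 °C (r = 0.536, adjusted p = 0.088).

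With spp-27, 5 members were called at 24 °C (spp-15, spp-11, fipr-1, abf-5 and cnc-6, r from 0.537 to 0.570), where 0.719% of all probes were called, and 0 at 16 °C, where 0.0172% of all probes were called and 9 members (11.2%) had an unadjusted p under 0.05, as did 8.1% of all probes. All 5 lost their call without WN9/WN62, and likewise without WN50/WN28. With fipr-28, fip-7 and abf-1 were called at 24 °C (1.3% of all probes) and 0 members at 16 °C (0%). With lys-10, abf-3, cnc-4 and thn-1, 0 members were called at either temperature, where between 0% and 0.099% of all probes were, and at an unadjusted p under 0.05 the share of members ran from 3.75% (abf-3 at 16 °C, 5.77% of all probes) to 22.5% (thn-1 at 24 °C, 9.43% of all probes).

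The genes outside the 8 families that were most like each of these probes at both temperatures were ranked by the lower of the 2 correlations over 40 arrays. For ilys-3 they were F43C11.7 (r = 0.821 and 0.813), lipl-3, a lysosomal lipase known to be induced on fasting (0.801 and 0.809), and T22F3.11 (0.752 and 0.807). For fip-7 they were K03D3.5 (0.698 and 0.856), T10B10.9 (0.625 and 0.931) and R01E6.5 (0.622 and 0.902), and for abf-3 R02C2.1 (0.696 and 0.726), C06E2.5 (0.672 and 0.578) and the claudin-like clc-3 (0.617 and 0.575). The caenacin cnc-4 was most like nlp-31 (0.546 and 0.527) and nlp-28 (0.522 and 0.581), which encode antimicrobial peptides of the epidermis, and F38B7.2 (0.497 and 0.535), all on chromosome V and none past the adjusted threshold.

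The cuticle collagen col-36 (0.573 and 0.597), the transthyretin-like ttr-44 (0.533 and 0.535) and pals-27 (0.654 and 0.530) came nearest to spp-27, of which col-36 passed the adjusted threshold at 24 °C and pals-27 at 16 °C. Nearest to fipr-28 were srlf-11 (0.545 and 0.682), sri-66 (0.482 and 0.496) and Y57G7A.6 (0.479 and 0.492). To thn-1 they were scav-2, a CD36-type scavenger receptor (0.459 and 0.493), ztf-7 (0.433 and 0.437) and C03A7.13 (0.451 and 0.426), and to lys-10 W08G11.1 (0.390 and 0.387), F28H7.3 (0.348 and 0.370) and dct-19 (0.345 and 0.355).

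Mixed tissues and small differences in age move many genes of a whole worm together. Mean ratios of 7 lists of marker genes were therefore correlated with all probes. Sperm proteins (msp), vitellogenins (vit) and furrow collagens were coherent lists (mean r of a probe with the rest of its list 0.561 to 0.709), whereas those of the intestine (0.139 and -0.005), neurons (0.203 and 0.244), body wall muscle (0.287 and 0.232) and pharynx (0.374 and 0.127) were not or barely so and say little about these tissues. Since only ratios are at hand, whether a tissue is present cannot be read from its markers.

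With the sperm score, 0 members were called at 16 °C (2.43% of all probes) and ilys-5 alone at 24 °C (r = 0.562, 7.35% of all probes). With the vitellogenin score, 0 were called at 16 °C (1.43%) and 4 at 24 °C (9.45%), namely ilys-5 (r = 0.500) and spp-4 (0.464) upwards and abf-5 (-0.50) and cnc-1 (-0.48) downwards. With the furrow collagens spp-5 was called at 16 °C (r = -0.55, 1.69% of all probes), and cnc-3 (0.538) and fip-5 (0.496) at 24 °C (2.32%). The ilys-3 probe gave r of -0.23 with the furrow collagens, -0.01 with sperm and 0.10 with the vitellogenins at 16 °C, and -0.27, -0.26 and -0.26 at 24 °C, with adjusted p from 0.35 to 0.99.

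The pharynx score was related to ilys-3 at 16 °C (r = 0.582, adjusted p = 0.049, 0.168% of all probes) and at 24 °C to fipr-2 (r = 0.614), abf-5 (0.553), spp-8 (0.521), fipr-1 (0.499), spp-17 (-0.54) and lys-2 (-0.59), with 4.81% of all probes. With the neuron score 8 members were called at 24 °C (3.16% of all probes), led by cnc-1 (r = 0.669), fipr-2 (0.586) and spp-6 (0.562), and with body wall muscle lys-8 at 24 °C (r = 0.565, 1.06%), while at 16 °C 0 members were called for both (0.0215% of all probes each). With the intestine score no probe of the array was called at either temperature. The part of tissue make-up in the shared variation of ilys-3 and its partners was not tested.

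Lists of genes known to act upstream of these peptides, and of related peptides, were measured beside them. A list of 6 kinases held pmk-1, sek-1 and nsy-1 of the p38 cascade of intestinal and epidermal immunity, beside pmk-3, mek-1 and kgb-1. Another held 8 immune regulators (elt-2, elt-3, elt-7, pqm-1, zip-2, nhr-86, bar-1 and fshr-1), and a further list 11 epidermal nlp peptides. Of these genes, 0 were called in the between-temperature correlation or the spread test. Over all probes, 1.04% were called positive in the correlation, 6.12% wider at 24 °C and 3% wider at 16 °C, so 0 calls in lists this short say little. In the same order, the median SDs of the lists were 0.76, 0.58 and 0.85 at 16 °C and 0.79, 0.70 and 0.86 at 24 °C. Of 8 genes of epidermal immune signalling, rack-1, a scaffold protein, was wider at 16 °C (SD 1.10 and 0.46, adjusted p = 5.8e-05), as 3% of all probes were. Of 6 genes of the DBL-1 pathway, a TGF-beta signal, the Smad genes sma-2 (0.84 and 1.73, adjusted p = 0.0013) and sma-3 (0.58 and 1.05, adjusted p = 0.013) were wider at 24 °C, as 6.12% of all probes were.

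The irg (infection response) and dod (downstream of DAF-16) genes varied more than the median member, with a median SD of 1.40 at 16 °C and 1.72 at 24 °C over 16 genes. Of these, dod-22 was called as repeated between temperatures (r = 0.533, adjusted p = 0.046, just under the threshold), beside 1.04% of all probes. By the spread test 6 were wider at 24 °C, namely irg-1, irg-3, irg-4, irg-5, irg-8 and dod-19. Their adjusted p ran from 9.2e-04 (irg-8) to 0.042 (irg-4), beside 6.12% of all probes. None was wider at 16 °C, as 3% of all probes were.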

How the data were processed

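RNA of 2 RI strains was hybridised on each of 80 two-colour oligonucleotide arrays. The deposited table holds the authors' normalized log ratios, read here as log2, 1 value per probe and array, with 0 missing values. The processing notes name limma, which works in log2, but the base, the dye in the numerator and the centring are not given in the sources used here. Array number limits the precision.

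Probes were named through the platform annotation, and the symbols were checked in RefSeq genes, which held all 81 members. The members and gene lists were chosen with earlier results of these data known. The text names members past a test, the most variable probe of each family, the 10 most variable probes, the 3 highest and 3 lowest r, genes with several probes, and the 3 named genes most like each family's probe.

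Pearson's r over 39 pairs (t distribution), the Pitman-Morgan test and r over 40 arrays were run on all probes and adjusted by Benjamini-Hochberg at 0.05. Python 3.11.15 with numpy 2.4.6 and scipy 1.17.1 was used. A check on simulated data drew independent normal values. It does not cover ratios with far-out arrays, so it cannot vouch for the spread calls. Permutation tests were two-sided. Apart from WN38 and WN80 at both temperatures and WN65 at 24 °C, on 2 arrays each, no strain was repeated at a temperature, so p-values cover the spread between strain pairs. Alternatives were array scaling, ranks, removal of the first 2 principal components, a threshold of 0.01, uncentred correlation, and leaving out pairs.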

Additional observations from a re-analysis of the deposited data

Results flagged for a closer look

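For 9 genes the spread over strain pairs differed between temperatures by the Pitman-Morgan test. Of these, 7 were wider at 24 °C, where 6.12% of all probes were called, and 2 at 16 °C, where 3% were. With every array centred and scaled, only spp-17, fip-7, lys-7 and spp-8 were still called, and on ranks 0 probes of the array were. The SD at the wider temperature was larger than at the other by a ratio of 2.14 for fip-7, 1.75 for fipr-28, 2.18 for spp-17, 1.77 for cnc-3, 1.68 for fipr-24, 1.61 for lys-2 and 1.6 for ilys-4, all wider at 24 °C, and of 2.34 for spp-8 and 1.68 for lys-7, both wider at 16 °C. For 3 pairs of genes the correlation over strain pairs passed the exchange test of a change between temperatures, but the genes had been picked by their call at 24 °C and not at 16 °C, so a rise was built into the choice and the test is no independent evidence of it. The correlation was higher at 24 °C by 0.549 for fip-7 with fipr-28, by 0.599 for fip-7 with abf-1 and by 0.403 for fipr-28 with abf-1. The exchange test also assumes equal spread at both temperatures, which fip-7 and fipr-28 did not have. With the first 2 principal components removed, the call of fip-7 with fipr-28 at 24 °C was lost (adjusted p = 0.088).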

How the results depend on the processing

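The count of 1 member repeated between temperatures was kept with scaled arrays, without recurring strains, without WN3/WN22, on ranks, without 2 principal components and at 0.01. It was 2 (fip-5 and fipr-28) with an uncentred correlation. That measure also counts a mean away from 0, and the fipr-28 ratios had means of 2.37 at 16 °C and 2.32 at 24 °C. Centred, its r was 0.223 (adjusted p = 0.85). Members wider at 24 °C numbered 2 with scaled arrays (2.6% of all probes), 0 on ranks (0%), 2 at 0.01 (2.46%) and 4 after division by the median SD (3.66%). Members wider at 16 °C numbered 0 on ranks (0%) and 1 at 0.01 (1.34%). Members called with ilys-3 at 16 °C numbered 1 without the principal components (0.0043% of all probes) and 7 at 0.01 (0.874%). At 24 °C they numbered 7 without recurring strains (2.59%), 4 without the components (0.319%) and 6 at 0.01 (1.3%). With the other 7 probes at 24 °C (9 calls), the calls numbered 4 without recurring strains, 3 on ranks, 0 without the components and 4 at 0.01. Over the 7 marker scores, the 2 calls at 16 °C became 1 without recurring strains, 1 without WN3/WN22, 1 without the components and 0 at 0.01. The 22 at 24 °C became 9 without recurring strains, 36 on ranks, 6 without the components and 4 at 0.01. In the main run a score called 0% to 2.43% of all probes at 16 °C and 0% to 9.45% at 24 °C. For the marker scores and the other 7 probes, the share of all probes was not counted under these alternatives. The cause of the shifts in these counts was not tested.

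Leaving out each pair in turn, added after seeing the data, gave 1 to 2 repeated members (2, with spp-6, without WN42/WN11), 5 to 8 wider at 24 °C and 1 to 3 wider at 16 °C. Leaving out each array gave 8 to 14 members with ilys-3 at 16 °C, 8 to 18 at 24 °C, and 4 to 11 with the other 7 probes at 24 °C, which was 4 or 5 without WN9/WN62, WN50/WN28, WN1/WN80, WN2/WN52, WN80/WN7, WN4/WN73 or WN60/WN77. Of 128 further values for single genes, 98 kept their side of the threshold, 30 lost their call (fip-5 without its 3 lowest pairs among them) and 0 reversed in sign. The 98 include values that were not called in the main run and stayed uncalled. They therefore do not measure how firm the calls were. The planned search of promoter motifs was not run. Signal over background was not at hand.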
